A study of Mus musculus with 4 samples.

Results

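The genes described here encode 10 transcription factors and partners that set granulocyte and monocyte fate: the C/EBP family members Cebpa, Cebpb, Cebpd, Cebpe and Cebpg, the repressors Gfi1 and Zeb2, the interferon regulatory factor Irf8, and Runx1 with its binding partner Cbfb. They were chosen by symbol in the deposited expression table, and all 10 were found among its 24497 listed features. RNA was measured by poly(A) sequencing in spleen cells of mice with acute myeloid leukaemia that carries the fusion gene MLL-AF9. Leukaemic donor marrow cells bearing CD45.2 had been transplanted into secondary recipients irradiated with 320 rads. Both groups carried this leukaemia; one was given 5 mg/kg of CS1, an inhibitor of FTO (an enzyme that removes the m6A mark from RNA) per the labels, into the peritoneum once every second day for 20 days, and the other was given PBS. Splenic cells were enriched for CD45.2 on a magnetic column before RNA extraction, and host cells that passed the column would be included. Each group had 2 libraries, and the labels give neither the number of leukaemia clones nor whether the libraries came from separate mice. P-values therefore measure the spread between these libraries, which may be technical, and a difference between clones cannot be told apart from the treatment. One label of CS1 replicate 2 names its treatment as CS2, while its title and description say CS1; it was kept as CS1.

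Myeloid progenitors become granulocytes or monocytes under a small set of transcription factors that act in overlapping waves. C/EBPα opens the myeloid programme, C/EBPε drives the late steps of granulocyte maturation, and C/EBPβ supports emergency granulopoiesis and macrophage functions. GFI1 represses monocyte genes in the granulocyte branch, while IRF8 promotes monocytes and dendritic cells and restrains neutrophil output. RUNX1, stabilised on DNA by CBFβ, acts earlier in the progenitors from which these lineages arise.

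The C/EBP genes encode basic leucine zipper proteins that bind the same DNA element as dimers with each other, so the makeup of the family in a cell matters as well as each level. The most alike coding stretch of 4 of them was located by comparing every in-frame window of 60 bases of the Cebpa coding sequence with the coding sequences of Cebpb, Cebpe and Cebpg in GENCODE M21 (GRCm38, the assembly of mm10). The stretches are shown because they show how far one family member's reads could be taken for another's. Capitals mark bases that differ from Cebpa.
Cebpa: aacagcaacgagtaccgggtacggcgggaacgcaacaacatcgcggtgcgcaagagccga
Cebpb: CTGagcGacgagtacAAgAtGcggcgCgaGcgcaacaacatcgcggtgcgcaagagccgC
Cebpe: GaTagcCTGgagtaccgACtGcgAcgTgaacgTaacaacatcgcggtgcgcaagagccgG
Cebpg: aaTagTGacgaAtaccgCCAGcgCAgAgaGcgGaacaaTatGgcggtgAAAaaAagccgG
Identity to Cebpa over these 60 bases was 81.7% for Cebpb, 80.0% for Cebpe, and 66.7% for Cebpg, a short family member that lacks the activation domains of the others and acts mainly as a dimer partner. Across the 10 pairs of whole transcripts, the longest run of identical bases was between 11 and 29 bases. Neither the read length nor the handling of reads that map to several places is given in the sources used here.

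The promoters of the 2 members with the largest rise and the largest fall, Gfi1 and Zeb2, and of Irf8, a gene that GFI1 opposes, were read from RefSeq (GRCm38.p6), from 250 bases before to 50 after a gene start. The table matched 8 of the 10 members with 14 promoters. Capitals mark matches, on either strand, to the C/EBP letters TTGCNNAA, the RUNX letters TGTGGT, the IRF letters (GAAA, any 2 bases, GAAA), the ETS letters AGGAAG, the ZEB letters CACCTG and the GFI1 letters AAATCA. No matches within one promoter shared bases.
Gfi1, upstream start, chr5:107725756-107726055, minus strand: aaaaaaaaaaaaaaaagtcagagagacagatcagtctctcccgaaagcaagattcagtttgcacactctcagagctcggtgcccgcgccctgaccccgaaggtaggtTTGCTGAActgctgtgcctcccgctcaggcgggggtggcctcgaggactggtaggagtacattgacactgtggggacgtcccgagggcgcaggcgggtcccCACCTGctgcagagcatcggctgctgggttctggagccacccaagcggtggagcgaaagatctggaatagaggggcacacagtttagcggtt
Gfi1, downstream start, chr5:107724294-107724593, minus strand: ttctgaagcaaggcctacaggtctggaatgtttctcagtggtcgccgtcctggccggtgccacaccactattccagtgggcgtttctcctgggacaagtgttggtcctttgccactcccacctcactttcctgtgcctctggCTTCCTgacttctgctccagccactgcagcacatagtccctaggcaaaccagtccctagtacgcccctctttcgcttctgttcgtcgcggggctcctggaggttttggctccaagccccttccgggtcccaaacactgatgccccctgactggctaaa
Zeb2, chr2:45117393-45117692, minus strand, its most upstream start in the table: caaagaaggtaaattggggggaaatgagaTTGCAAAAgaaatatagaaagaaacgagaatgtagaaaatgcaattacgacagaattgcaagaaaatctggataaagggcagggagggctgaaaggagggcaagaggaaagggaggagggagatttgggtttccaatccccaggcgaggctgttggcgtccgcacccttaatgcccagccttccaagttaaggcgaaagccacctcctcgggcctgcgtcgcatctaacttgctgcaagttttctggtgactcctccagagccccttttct
Irf8, upstream start of the 2 in the table, chr8:120736108-120736407, plus strand: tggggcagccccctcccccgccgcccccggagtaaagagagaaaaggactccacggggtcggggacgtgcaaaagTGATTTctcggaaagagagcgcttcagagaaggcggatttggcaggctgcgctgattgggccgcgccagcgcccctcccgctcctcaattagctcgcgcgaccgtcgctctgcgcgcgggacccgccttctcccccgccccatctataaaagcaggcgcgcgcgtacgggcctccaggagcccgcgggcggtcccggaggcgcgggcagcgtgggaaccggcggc
The upstream Gfi1 promoter holds the C/EBP letters TTGCTGAA 143 bases and the ZEB letters CACCTG 42 bases before the start. The Zeb2 promoter shown holds the C/EBP letters TTGCAAAA 221 bases before its start, and the Irf8 promoter shown holds the GFI1 letters TGATTT, read on the other strand, 175 bases before its own. The other Irf8 promoter, not printed, holds the same GFI1 letters 226 bases and the ZEB letters, read as CAGGTG, 205 bases before its start. Of the 14 member promoters, 2 held the C/EBP letters, 3 the ZEB letters, 2 the GFI1 letters, 6 the ETS letters, 1 the RUNX letters and 0 the IRF letters. These promoters are not independent, since some members have several starts. The Zeb2 promoters chr2:45113204-45113503 and chr2:45113230-45113529 overlap, and the same ETS letters were counted in both. Among 32851 promoters of 300 bases, the C/EBP letters were in 10.8%, the ZEB letters in 20.2%, the GFI1 letters in 14.0%, the ETS letters in 35.4%, the RUNX letters in 16.8% and the IRF letters in 3.44%. These matches describe letters in the sequence and do not show binding.

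Levels are given as TPM, a share of all transcripts corrected for transcript length, so they can be compared between genes. The deposited values summed to between 977973 and 986345 per library, and how many reads lie behind them is unknown. Differences were tested with limma on log2(TPM + 1) over the 11866 features that reached 1 TPM in 2 or more libraries. A gene was called where p, after Benjamini-Hochberg adjustment over all of these features, was below 0.05. All 10 members passed the filter. Of these, 3 rose and 6 fell in CS1, with a median log2 fold change of -0.33, against a median of 0.04 over all tested features. Calls were common in this comparison: 67.0% of all tested features were called, 35.3% as higher and 31.6% as lower. The 9 of 10 members called, and the 10 of 10 whose groups did not overlap against 84.4% of all features, are to be read against those shares. A change of at least 1 on the log2 scale was rarer, at 7.47% of tested features, and 2 of the members, Gfi1 and Cebpe, reached it.

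In PBS the order of levels ran from Cebpb at 925 ± 27.4 TPM (SD, n = 2, as for all values given so), through Irf8, Cebpa, Zeb2, Cbfb, Cebpd, Cebpg, Runx1 and Cebpe, down to Gfi1 at 11.2 ± 2.06 TPM. No neighbours in that order had overlapping libraries in PBS. In CS1, Cebpb, Irf8, Cebpa and Zeb2 kept the top places, while Cebpe and Gfi1 moved up to lie beside Cbfb, and Runx1 was lowest at 23.7 ± 0.0778 TPM. The CS1 libraries of Gfi1 lay within those of Cbfb, so these neighbours did not differ beyond their spread. In the plot of levels, the 2 libraries of a group sit close together for each gene.

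**Figure D1:**
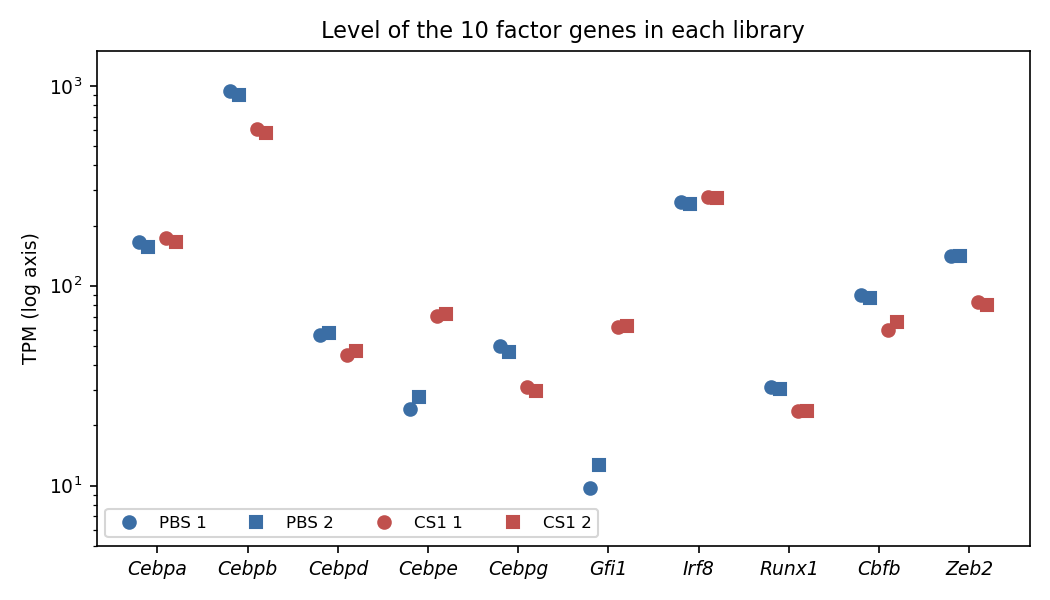
TPM of each of the 10 genes in each library on a log axis, with PBS libraries in blue and CS1 libraries in red (circles replicate 1, squares replicate 2). Gfi1 lies at 9.76 and 12.68 TPM in PBS and at 62.04 and 63.22 TPM in CS1, while the PBS and CS1 libraries of Cebpa lie close to each other, as do those of Irf8.

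Gfi1 and Cebpe, which promote granulocytes, rose. Gfi1, the zinc finger repressor needed for neutrophil formation, was measured at 9.76 and 12.68 TPM in PBS and at 62.04 and 63.22 TPM in CS1. Both CS1 libraries were far above both PBS libraries, and the PBS pair differed more between themselves, in proportion, than the CS1 pair. The mean went from 11.2 ± 2.06 to 62.6 ± 0.834 TPM, a ratio of 5.58 (log2 fold change 2.39 ± 0.11, SE, adjusted p = 2.26e-05). This placed Gfi1 at rank 46 of 11866 features ordered from the largest rise. Its standing within a library also moved, from above 65.7% and 68.1% of listed features in PBS to above 88.1% and 88.5% in CS1. Gfi1 lies on chromosome 5 (107716657 to 107726036, mm10, minus strand).

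Cebpe, whose product switches on the secondary granule genes of neutrophils, stood at 24.27 and 27.84 TPM in PBS and at 70.56 and 72.25 TPM in CS1. Again the groups were well apart. The mean rose from 26.1 ± 2.52 to 71.4 ± 1.195 TPM, a ratio of 2.74 (log2 fold change 1.42 ± 0.07, adjusted p = 2.37e-05), at rank 229 from the largest rise. Cebpe is a short gene of 2 exons on chromosome 14 (54710360 to 54712174, minus strand).

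Cebpa, the founding factor of the myeloid programme, was at 164.82 and 156.36 TPM in PBS and at 173.69 and 165.65 TPM in CS1. The higher PBS library and the lower CS1 library nearly met. The means of 161 ± 5.98 and 170 ± 5.69 TPM gave a log2 fold change of 0.08 with a 95% interval from -0.01 to 0.17, which did not pass the test (adjusted p = 0.112). The interval leaves out a change as large as that of either Gfi1 or Cebpe. The call depended on the setting, as Cebpa passed after quantile normalization (log2 fold change 0.16, adjusted p = 0.0184) and with the replicate number as a block (adjusted p = 0.0495), within a range of 0.0184 to 0.434 over 12 alternatives.

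The other C/EBP genes fell. Cebpb, an inducible factor of macrophages and stress granulopoiesis and the most abundant member, was at 944.24 and 905.53 TPM in PBS and at 609.44 and 581.25 TPM in CS1. Both CS1 libraries were about equally low. The group means were 925 ± 27.4 and 595 ± 19.9 TPM, which gave a log2 fold change of -0.63 ± 0.03 (adjusted p = 2.94e-05) and the largest difference in TPM among the members. Cebpg, the dimer partner without activation domains, was at 50.06 and 46.48 TPM in PBS and at 31.03 and 29.81 TPM in CS1, with no overlap (log2 fold change -0.65 ± 0.05, adjusted p = 0.00015). Cebpd, an acute-phase factor close to C/EBPβ in function, was at 56.48 and 57.73 TPM in PBS and at 44.80 and 47.38 TPM in CS1 (log2 fold change -0.30 ± 0.04, adjusted p = 0.00132). Its fall was the smallest of the 6, and the groups still lay apart. Cebpa and Cebpg are neighbours on chromosome 7 (35119293 to 35121928, plus strand, and 35046422 to 35056573, minus strand), with 62719 bases between them, and had log2 fold changes of 0.08 and -0.65.

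Cebpb shares 312 exon bases with Tmem189 on the other strand and Cebpd shares 562 with Spidr, whose log2 fold changes were -0.30 and -0.72. Gfi1 shares 101 with A430072P03Rik, Runx1 106 with Gm26626 and Cebpa 51 with Gm45091, also on the other strand, and Cebpg shares 73 with Gm44836 on its own strand; these partners matched no row of the table by symbol. Since it is not given whether counting used the strand, the values of Cebpb, Cebpd, Gfi1, Runx1 and Cebpa are uncertain to that extent, and that of Cebpg in either case. Spidr went from 31.37 and 29.86 TPM to 17.63 and 18.67 TPM, so it fell with Cebpd, and its part in the value of Cebpd was not tested.

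Summed over the 5 C/EBP genes, the level was 1240 and 1194 TPM in PBS and 930 and 896 TPM in CS1. The mean of 1217 ± 32.5 TPM in PBS became 913 ± 23.5 TPM in CS1, a ratio of 0.75. With 2 libraries against 2, the exact two-sided permutation test of such a single value cannot give a p under 0.333, and it gave 0.333 here, with both CS1 sums below both PBS sums. The makeup of the sum moved as well. Cebpb made up 76.2% and 75.8% of it in PBS and 65.6% and 64.8% in CS1. Cebpe went from 1.96% and 2.33% to 7.59% and 8.06%, and Cebpa from 13.3% and 13.1% to 18.7% and 18.5%, while its own level did not pass the test. Cebpd held 4.56% and 4.84% in PBS and 4.82% and 5.29% in CS1, so the groups overlapped in that share. The stacked bars of the family show these parts.

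**Figure D2:**
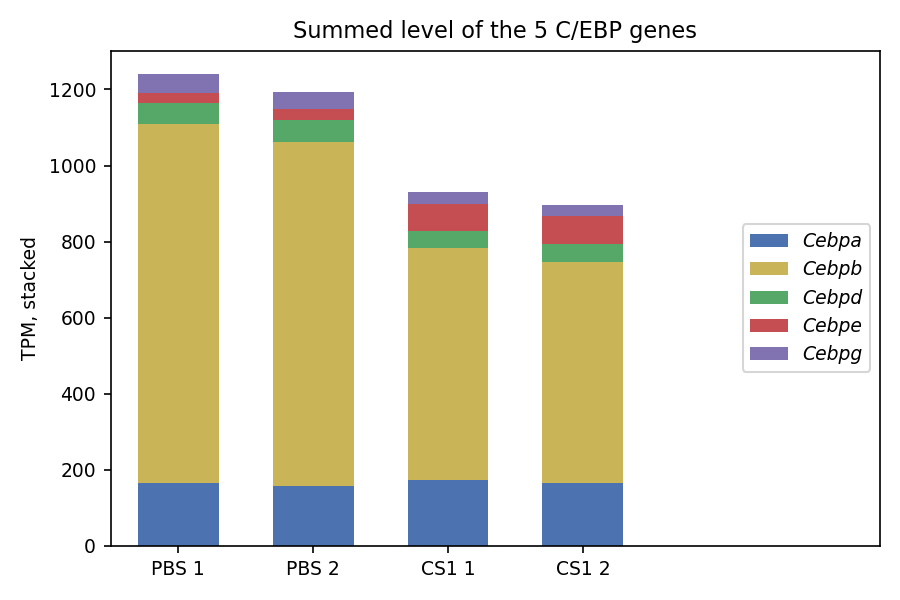
Stacked TPM of the 5 C/EBP genes in each library, from 0. The sum falls from 1240 and 1194 TPM in PBS to 930 and 896 TPM in CS1, with the Cebpb part lower and the Cebpe part higher in CS1.

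Irf8, the monocyte and dendritic cell factor, was at 262.64 and 256.22 TPM in PBS and at 278.91 and 273.29 TPM in CS1. The CS1 libraries were both slightly higher. The means of 259 ± 4.54 and 276 ± 3.97 TPM differed by a ratio of 1.06 (log2 fold change 0.09 ± 0.02, adjusted p = 0.0207). This call was lost in 5 of 12 alternatives, among them when PBS replicate 2 was left out (adjusted p = 0.107), when CS1 replicate 1 was (0.0984) and with trimmed-mean (TMM) scaling factors (0.0529). After quantile normalization the log2 fold change was 0.22.

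Zeb2, a zinc finger repressor that supports monocyte and macrophage identity, was at 140.60 and 140.75 TPM in PBS and at 83.00 and 80.19 TPM in CS1. The PBS libraries were nearly the same, and both CS1 libraries lay far below them. The group means were 141 ± 0.106 and 81.6 ± 1.99 TPM, which gave a log2 fold change of -0.78 ± 0.03 (adjusted p = 1.13e-05), the largest fall among the members, at rank 606 of 11866 from the largest fall. Zeb2 (chromosome 2, 44983632 to 45117395, minus strand) shares 653 exon bases with its antisense transcript Zeb2os, listed at 60.23 and 58.44 TPM in PBS and at 45.82 and 43.95 TPM in CS1 (log2 fold change -0.40, adjusted p = 0.000366). Without knowledge of the strand setting, reads of the pair cannot be told apart in that stretch.

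Runx1 and Cbfb, the DNA-binding and stabilising subunits of core-binding factor, both fell. Runx1 was at 31.03 and 30.44 TPM in PBS and at 23.61 and 23.72 TPM in CS1, with no overlap (log2 fold change -0.36 ± 0.05, adjusted p = 0.000895). Cbfb was at 89.90 and 87.06 TPM in PBS and at 59.81 and 66.18 TPM in CS1 (log2 fold change -0.49 ± 0.05, adjusted p = 0.000516). The CS1 libraries of Cbfb differed more than its PBS libraries, yet both were below them. The dot plot of fold changes sets the 10 members side by side.

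**Figure D3:**
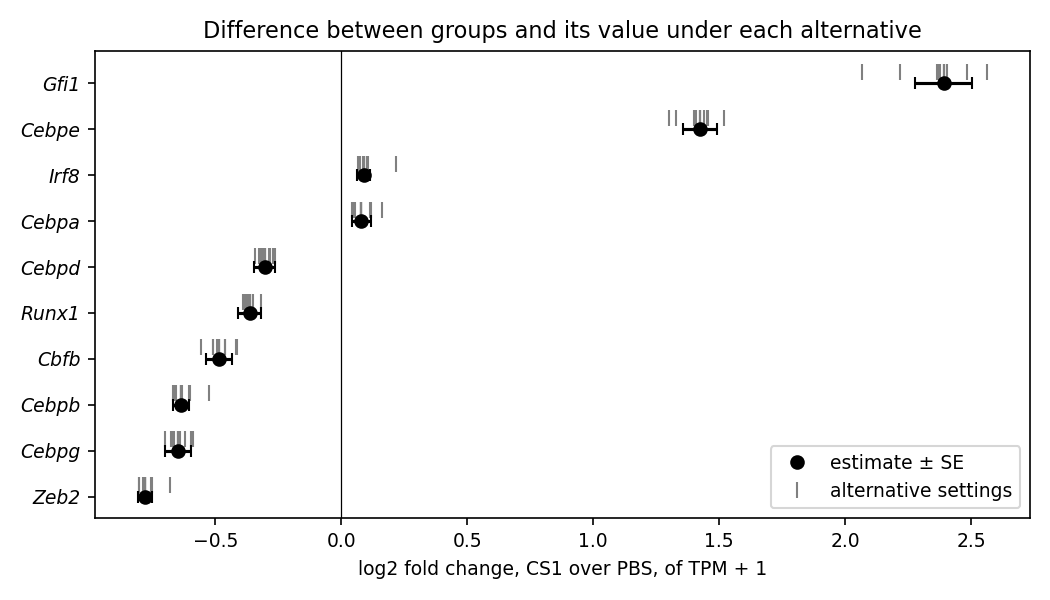
Log2 fold change of TPM + 1 (CS1 over PBS) of each gene, with dots for the estimate, bars for its SE and grey ticks for 12 alternative settings. Gfi1 and Cebpe lie to the right at 2.39 and 1.42, Irf8 and Cebpa near 0, and the other 6 genes to the left between -0.30 and -0.78.

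Ratios of members within a library do not depend on a common factor by which that library was scaled, and 7 were compared. Quantile normalization uses no such factor and was not applied to the ratios. Gfi1 over Irf8, a pair that pulls progenitors toward granulocytes and monocytes respectively, was 0.0372 and 0.0495 in PBS and 0.222 and 0.231 in CS1. This was a difference of 2.40 on the log2 scale, the largest of the 7. Cebpe over Cebpa went from 0.147 and 0.178 to 0.406 and 0.436. Cebpb over Cebpa went from 5.73 and 5.79 to 3.51 in both CS1 libraries. Each pair of values lay apart between groups.

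Cebpg over Cebpa went from 0.304 and 0.297 to 0.179 and 0.180, and Cebpd over Cebpa from 0.343 and 0.369 to 0.258 and 0.286. Zeb2 over Irf8 was 0.535 and 0.549 in PBS and 0.298 and 0.293 in CS1. Runx1 over Cbfb moved least, from 0.345 and 0.350 to 0.395 and 0.358. Its log2 difference of 0.11 compares with SDs of 0.01 in PBS and 0.10 in CS1, and it was 0.05 without CS1 replicate 1 and 0.18 without CS1 replicate 2. Each of the 7 ratios had an exact permutation p of 0.333, the smallest these 4 libraries allow, and 0.333 after adjustment over the 7.

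**Figure D4:**
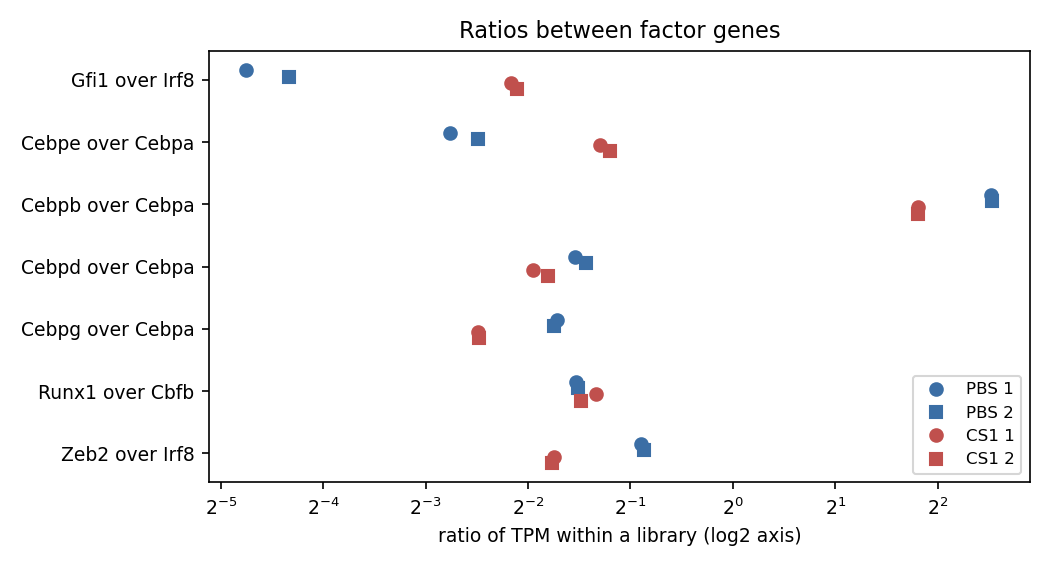
Ratio of TPM between 2 genes of the same library on a log2 axis, with PBS libraries in blue and CS1 libraries in red (circles replicate 1, squares replicate 2). Gfi1 over Irf8 shows the widest gap between groups (2.40 on the log2 scale) and Runx1 over Cbfb the narrowest (0.11).

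The genes around these factors were read from 7 lists, described by counts beside the shares over all features given above. Of the modulators and dimer partners of C/EBP proteins, 3 of 14 tested rose and 6 fell (median log2 fold change -0.25). Atf4, a stress-response factor that dimerises with C/EBP proteins, rose from 296 ± 2.69 to 417 ± 6.98 TPM, and Batf3, a dendritic cell factor, from 3.21 ± 0.184 to 7.58 ± 0.530 TPM. Batf, a related AP-1 factor, fell from 84.8 ± 7.04 to 36.6 ± 0.233 TPM (log2 fold change -1.19), and Calr, a chaperone also linked to Cebpa translation, fell by 0.26 on the log2 scale. Of other granulocyte and monocyte regulators, 9 of 26 rose and 14 fell (median -0.18). Klf2, a quiescence factor of the Krüppel-like family, rose from 356 ± 6.36 to 578 ± 0.615 TPM, and the chromatin protein gene Hmgb2 had a log2 fold change of 0.49. Bcl6, a repressor, fell from 112 ± 0.276 to 46.3 ± 0.403 TPM, and Rara, the retinoic acid receptor gene, had a log2 fold change of -0.63.

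Of RUNX relatives and partners, 3 of 13 tested rose and 5 fell (median -0.05). Cdk6, a cell-cycle kinase that binds RUNX1, rose from 107 ± 0.163 to 199.9 ± 1.92 TPM. Runx2, a paralogue of Runx1, rose from 13.1 ± 1.33 to 18.5 ± 1.24 TPM, so the log2 fold changes of the paralogues were 0.47 and -0.36. The Runx2 call was lost in limma with no filter (adjusted p = 0.0942). The corepressor gene Tle3 and the acetyltransferase gene Ep300 had log2 fold changes of -0.54 and -0.56. Of the corepressors and relatives of GFI1 and ZEB2, 5 of 14 rose and 5 fell (median -0.04). Zbtb17, which encodes MIZ1, a partner of GFI1, and Hdac1, a histone deacetylase, had log2 fold changes of 0.51 and 0.14. Ctbp2, a corepressor bound by ZEB proteins, and Rcor1, a corepressor partner of the demethylase LSD1, had log2 fold changes of -0.52 and -0.36. Without CS1 replicate 2, 3 of this list fell.

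Of granule and receptor genes known to be activated by C/EBP factors, 13 of 22 tested rose and 8 fell (median 0.72). Elane, the neutrophil elastase gene, and Camp, the cathelicidin gene, had log2 fold changes of 2.56 and 2.43. The neutrophil markers Ngp, Ltf and Mmp8, also on this list, had log2 fold changes of 2.18, -0.65 and -1.05. Lyz2, the lysozyme gene of the monocyte and granulocyte lineages, and Itgam, which encodes CD11b, had log2 fold changes of -1.09 and -0.95. Of monocyte and dendritic genes that depend on IRF8, 9 of 18 rose and 9 fell (median 0.04). Log2 fold changes were 0.68 and 0.72 for the antigen presentation genes Cd74 and H2-Aa, -0.84 for the cathepsin gene Ctss, and -0.74 for Csf1r, which encodes the receptor of a monocyte growth factor. Of genes known to be repressed by GFI1, 5 of 14 rose and 3 fell (median 0.14), or 7 and 2 after quantile normalization; Irf8 is one of the 5. Hoxa9, a leukaemia-sustaining homeobox gene, rose from 67.8 ± 2.06 to 159 ± 2.24 TPM and Jun, an AP-1 subunit, from 537 ± 2.84 to 706 ± 17.9 TPM. Csf1r, which is on 3 of the lists, and Spi1, which encodes PU.1, fell. Spi1 went from 849 ± 21.2 to 707 ± 3.64 TPM. Id2 is also on 3 of the lists, and Spi1, Batf3 and others are on 2, so the list counts share genes. Cebpa, like Irf8, is on the list of genes repressed by GFI1. Of the genes named from the lists, Csf1r shares 873 exon bases with Hmgxb3, Runx2 519 with Runx2os1, Cdk6 368 with Gm17590 and Jun 232 with Junos, each on the other strand, so these values are uncertain if the strand was not used. Itgam shares 3450 with Gm49368 and Ctbp2 314 with Fgfr2 on their own strand, so their values are uncertain in either case; smaller overlaps of list genes are not given.

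**Figure D5:**
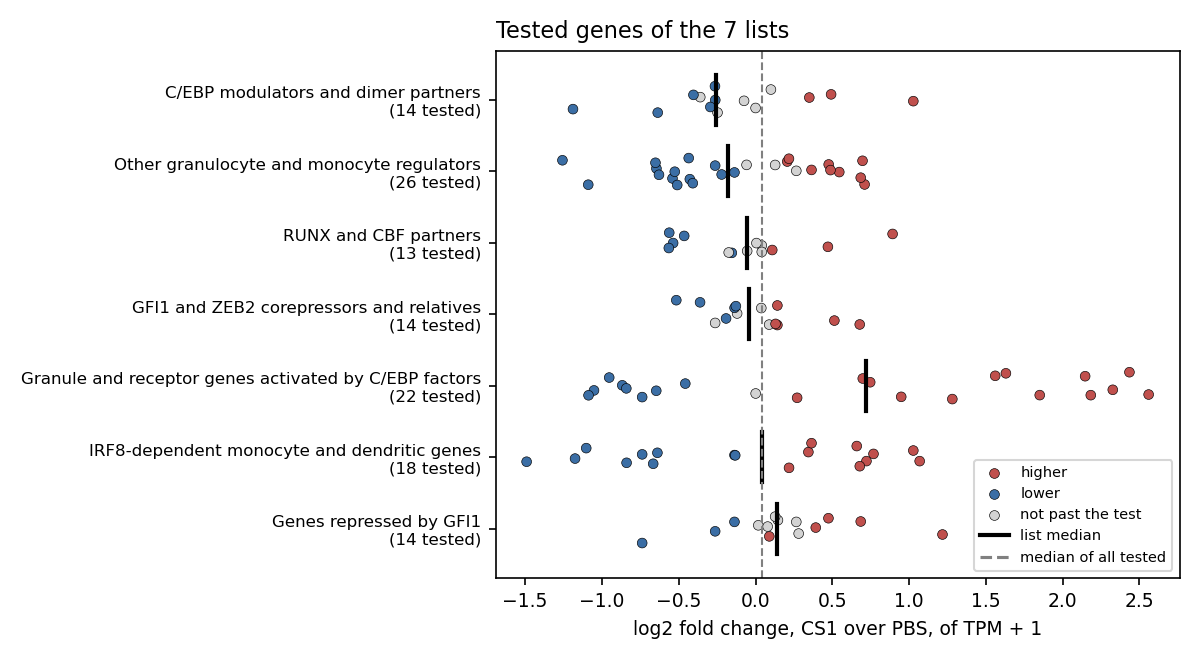
Log2 fold change of TPM + 1 (CS1 over PBS) of each tested gene in the 7 lists, 1 point per gene in red (higher), blue (lower) or grey (not past the test), with a black bar at each list's median and a dashed line at the median of all tested features, 0.04. The C/EBP-activated genes spread widest, from -1.09 to 2.56 around a median of 0.72.

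Cell type markers were read in the same libraries, and in bulk RNA fewer cells of a type and less RNA per cell cannot be told apart. Marker calls are to be read against the 35.3% of tested features called higher and the 31.6% called lower. Markers that did not pass the filter were not tested, but they count in the size of each marker list. Of 5 leukaemia donor and pan-leukocyte markers, 2 were called higher and 3 lower. The pan-leukocyte gene Ptprc was at 582.88 and 596.65 TPM in PBS and at 323.09 and 314.54 TPM in CS1. The leukaemia genes Hoxa9 and Meis1 were present in all 4 libraries and were the 2 called higher. Meis1 was at 25.23 and 26.62 TPM in PBS and at 35.99 and 36.82 TPM in CS1. Summed over 7 neutrophil markers, the level was 1719 to 1753 TPM in PBS and 5381 to 5404 TPM in CS1, mostly through Camp and Ngp. Of these markers, 3 were called higher (among them Camp and Ngp) and 3 lower (among them Mmp8 and Ltf). Mmp8 went from 610.95 and 616.71 TPM in PBS to 298.54 and 292.55 TPM in CS1, and the defining marker Ly6g was at 3.85 to 5.21 TPM throughout. Summed over 8 monocyte and macrophage markers, the level was 3525 TPM in both PBS libraries and 2695 to 2700 TPM in CS1, with 5 called lower and 2 higher. The 6 dendritic cell markers summed to 230 to 232 TPM in PBS and 444 to 448 TPM in CS1, mostly through Flt3, which progenitors also express, and 5 were called higher. The 6 markers of mast cells, basophils and eosinophils summed to 10.3 to 10.8 TPM in PBS and 53.9 to 56.9 TPM in CS1, mostly through the basophil protease gene Mcpt8, while Prss34 and Epx were under 1 TPM in all libraries.

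The summed markers of T cells and of B cells were low, and these sums were lower in CS1. The 6 T cell markers summed to 12.97 to 13.59 TPM in PBS and 8.27 to 8.34 TPM in CS1, with 2 called lower and 0 higher, and the 6 B cell markers to 54.4 to 55.8 TPM and 32.2 to 34.8 TPM, with 4 called lower and 0 higher. The 5 plasma cell markers, nearly all of whose sum was Xbp1, summed to 302 to 306 TPM in PBS and 230.0 to 238 TPM in CS1, with 3 called lower and 0 higher. The megakaryocyte markers summed to 1.45 to 2.18 TPM in PBS and 4.13 to 6.62 TPM in CS1, with 1 called higher and with Pf4 and Ppbp listed at 0.01 throughout. The NK cell markers summed to 12.7 to 14.9 TPM in PBS and 37.5 to 44.0 TPM in CS1, with 1 called higher and 1 lower, Ncr1, Klrb1c, Klra8 and Prf1 under 1 TPM in every library and nearly all of the sum in Nkg7. The erythroid markers summed to 4.70 to 29.4 TPM, the lowest being CS1 replicate 2, where Hba-a1 was listed at 0.01. The stromal and endothelial markers, mostly Pecam1, summed to 47.9 to 49.6 TPM in PBS and 41.4 to 43.4 TPM in CS1, with 1 called higher and 1 lower, and with Col1a1, Col3a1, Cdh5 and Cxcl12 under 1 TPM. The part of any of these marker lists in the changes of the 10 members was not tested.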

How the data were processed

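Poly(A) RNA of 4 spleen libraries (2 PBS, 2 CS1) was analysed. Per the submitters' processing notes, STAR, RSEM and mm10 were used; neither versions, annotation nor strand setting is given in the sources used here. Values in the deposited table were taken as TPM made by the authors, a unit inferred from decimals, from column sums close to those of TPM and from RSEM. The lowest listed value, 0.01, stands where a 0 would be expected. TPM keeps no read depth, so no counting interval is given.

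Groups came from sample titles. The 2 groups were compared using limma 3.58.1 under R 4.3.3, two-sided, on log2(TPM + 1), with a variance trend. Features that reached 1 TPM in 2 or more libraries were tested, and p was adjusted over all of these by Benjamini and Hochberg's method. Adjusted p-values of genes are from this test, whose script was tested on simulated data; those of ratios are from exact permutation tests, adjusted over the ratios. The planned design named a test for either kind of value, counted or normalized; the second was applied. Fold changes on this scale understate those of low genes. The 10 genes, the 7 gene lists and the marker lists were chosen with earlier results of these data known. Text names all 10 genes and, of each list, the 2 called genes with the smallest p in each direction; markers and exon neighbours were named after their values were seen. Of the names written in the lists, 1 gene and 1 marker matched no row by symbol. Alternatives were other pseudocounts (0.1 and 5), other filters, trimmed-mean (TMM) and quantile scaling, no variance trend, a replicate block and leaving out each library. Coordinates are from GENCODE M21. One coding stretch of the C/EBP family is not reported here.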

Additional observations from a re-analysis of the deposited data

How the results depend on the processing

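The 6 falls and the rises of Gfi1 and Cebpe kept their direction and stayed past the test in all 12 alternatives. Their log2 fold changes ranged from 2.07 to 2.56 for Gfi1 and from 1.30 to 1.52 for Cebpe. The call of Irf8 was lost with no filter (adjusted p = 0.102), without the variance trend (0.116), with TMM scaling (0.0529), without PBS replicate 2 (0.107) and without CS1 replicate 1 (0.0984); its range was 0.000746 to 0.116, and the cause was not tested. Quantile normalization gave 5 rises in place of 3 among C/EBP modulators, and a summed C/EBP difference (CS1 minus PBS) of -236 TPM in place of -304 TPM. Among corepressors and relatives of GFI1 and ZEB2, 2 fell with no filter and 3 without the variance trend, in place of 5, and 3 to 6 when one library was left out. Among genes repressed by GFI1, no filter left 5 calls in place of 8, and 3 rises in place of 5; with more features tested, the adjustment and the variance trend change.

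The groups share replicate numbers, but no pairing of same-numbered libraries is given in the sources used here. The correlation of PBS 1 minus PBS 2 with CS1 1 minus CS1 2 was 0.02 across 11866 features. A single correlation of this kind cannot show whether the libraries were paired. With the replicate number as a block, 7750 features were called in place of 7949, and 10 of the members in place of 9, the addition being Cebpa (adjusted p = 0.0495). The depth is unknown, so how far it limits the precision of each member cannot be given.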
